A study of Mus musculus with 2 samples.

Results

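The 35 genes described here belong to the unfolded protein response (UPR), the program with which a cell answers an overload of unfolded protein in the endoplasmic reticulum (ER). They were taken by name from a list of the pathway, drawn up with earlier results of these data known, and were looked up by mouse symbol among the 55416 gene IDs of the count table. All 35 were found. They fall into 4 groups by role, which are 15 chaperones and folding enzymes, 7 factors of ER-associated degradation (ERAD), 3 stress sensors with the transcription factor Xbp1 (4 genes), and 9 genes of the ATF4 arm.

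As background, the UPR starts from 3 sensors in the ER membrane. IRE1 (Ern1) splices the mRNA of Xbp1, and ATF6 is cut in the Golgi to release a transcription factor. Spliced XBP1 and cleaved ATF6 raise chaperones, folding enzymes and ERAD factors. PERK (Eif2ak3) phosphorylates the initiation factor eIF2, which lowers translation in general but allows translation of ATF4. ATF4 in turn raises genes of amino acid supply, redox balance and cell death, and the same arm can be entered through other eIF2 kinases that sense amino acid shortage, double-stranded RNA or heme shortage. Splicing of Xbp1, cleavage of ATF6 and phosphorylation of eIF2 cannot be read from the number of reads per gene, so the counts measure the RNA of the response and not the state of its sensors.

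Bulk RNA-seq had been carried out on 2 murine rhabdoid tumors (RT), a malignancy in which Smarcb1 is typically lost. Smarcb1 is a core part of the SWI/SNF complex, which remodels chromatin. One tumor is labelled intracranial, at the trigeminal nerve, and the other extracranial, facial and maxillar, and both were classified as MYC. Both came from Dppa3-cre::Smarcb1 fl/+ mice, in which Cre recombinase is expressed from the locus of Dppa3, a gene of primordial germ cells, and a floxed Smarcb1 allele is carried beside an intact one. Loss of the intact allele is left to chance in this model. By staining, the authors reported loss of Smarcb1 protein in a tumor of this model beside the trigeminal nerve and another in the maxillary region. Ages were not given, and no normal tissue of these mice was analysed here.

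There was 1 library per localization. None of the differences has a replicate check, no p-value can be given, and tumor location, mouse and library cannot be told apart. The libraries held 34545846 and 26915696 counts over 29670 and 27252 genes, and the floor of 3 counts used here was 0.0863 and 0.112 CPM, the usual unit of counts relative to library size. Smarcb1 itself had 365 and 530 counts (10.5 and 19.8 CPM). The cell content differed widely, since 8 keratinocyte markers summed to 21990 CPM in the library labelled intracranial and to 3.10 CPM in the other. The source of so much keratinocyte marker RNA in a tumor labelled intracranial was not tested. The labels of the tumors could not be checked here and stay in some doubt. Each library is named by its label throughout, and the direction of every ratio rests on these labels. In bulk tissue, fewer cells of a type and less RNA per cell cannot be told apart.

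All 35 genes were above the floor in both libraries and had 10 or more counts over both. Per kilobase of exon, which allows levels to be compared between genes, the group of chaperones held the top ranks. P4hb, Calr and Pdia3 ranked 1, 2 and 3 in both libraries, with levels of 255, 204 and 164 CPM per kilobase in the library labelled intracranial and 262, 258 and 173 in the library labelled extracranial. The lowest of the 35 in both was Derl3, at 0.448 and 0.263 CPM per kilobase. The median chaperone lay at percentile 95 and 95.6 of the 24321 genes ranked by this level. The median ERAD gene lay at 79.5 and 80.0, the median of the sensors and Xbp1 at 65.4 and 69.5, and the median of the ATF4 arm at 78.5 and 76.1. Both tumors therefore carried abundant RNA for the folding machinery and less for the sensors that control it. Over the 35 genes, the order of these levels was alike in both libraries (Spearman's rho 0.934, across genes that share each library and its depth).

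**Figure D1:**
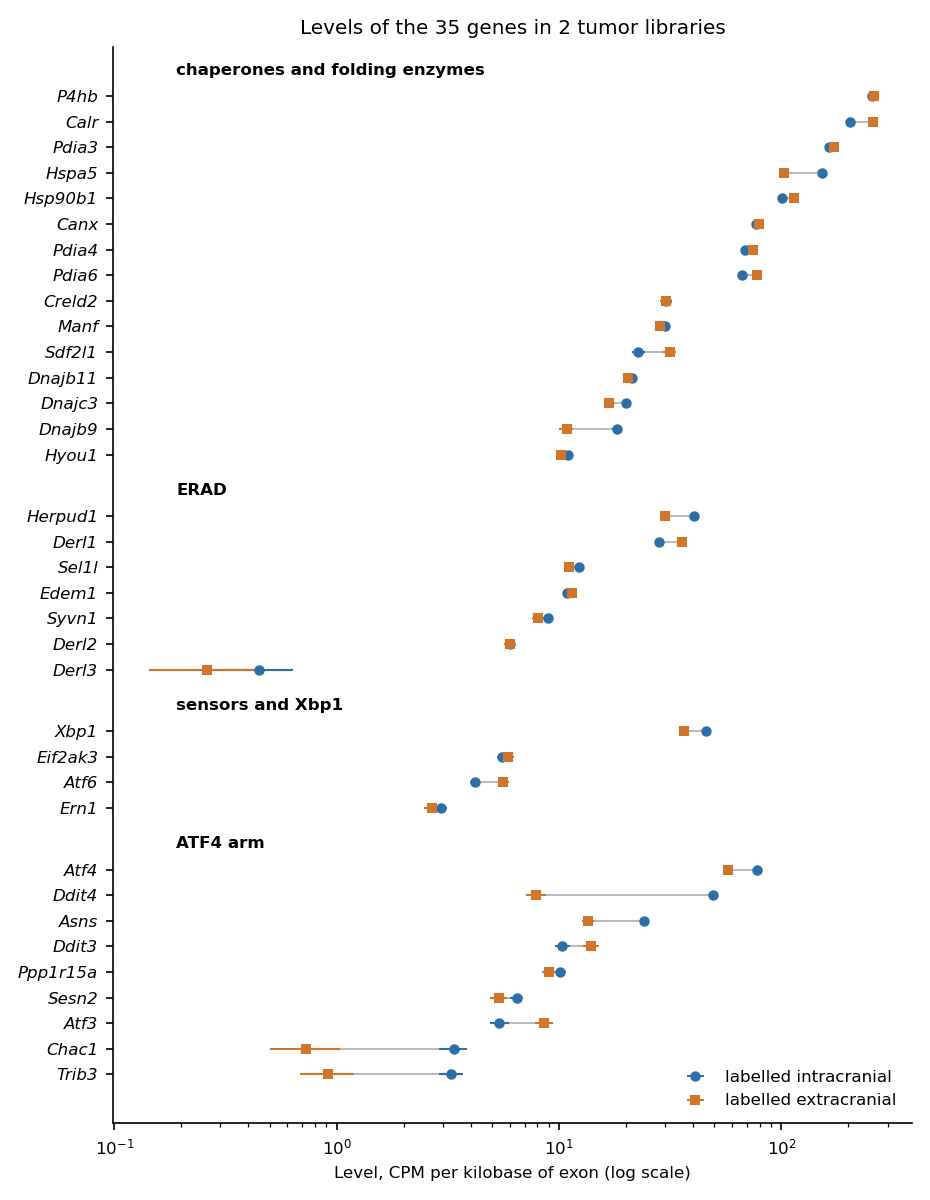
Level of each of the 35 genes in CPM per kilobase of exon (log axis) in the library labelled intracranial (blue circles) and the library labelled extracranial (orange squares), by group and ordered by the intracranial level; bars are 95% Clopper-Pearson counting intervals and grey lines join the 2 values. The markers nearly coincide for most chaperones, and Ddit4, Chac1 and Trib3 lie far apart, with Ddit4 going from rank 10 to rank 27 of 35.

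Between the libraries, ratios were taken as extracranial over intracranial on library sizes scaled by the trimmed mean of M-values (TMM), each with a conditional exact binomial 95% interval. These intervals cover counting error only. A gene was called where its whole interval lay beyond 2-fold. By this rule 3 of the 35 genes were lower in the library labelled extracranial and 0 were higher. Among all 21977 genes with 10 or more counts, 9.77% were called lower and 5.86% higher. The 3 lower genes of 35 are thus close to the background share of lower calls, and their number is not in itself a result about the UPR. The 3 genes were Ddit4, Chac1 and Trib3, all from the ATF4 arm. The ratio of the other 32 genes (91.4%) was within 2-fold, against 72.4% of all genes with 10 or more counts and 80.2% of the 15582 genes with 100 or more.

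The background shares were alike at higher depth. Of the genes with 100 or more counts, 9.58% were called lower and 6.21% higher, and 34 of the 35 UPR genes, with the exception of Derl3, reached that depth. With a stricter rule, the interval beyond 4-fold, 1 of the 35 was lower (Ddit4) and 0 were higher, beside 5.41% and 1.78% of all genes. By counting error alone, an interval that leaves out 1-fold, 16 were lower and 12 higher, beside 32.2% and 29.2% of all genes. That rule passes differences of a few percent at this depth, and it says nothing about how far 2 tumors of the same location would differ. The median log2 ratio of the 35 was -0.07, and that of all genes with 10 or more counts was -0.04.

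**Figure D2:**
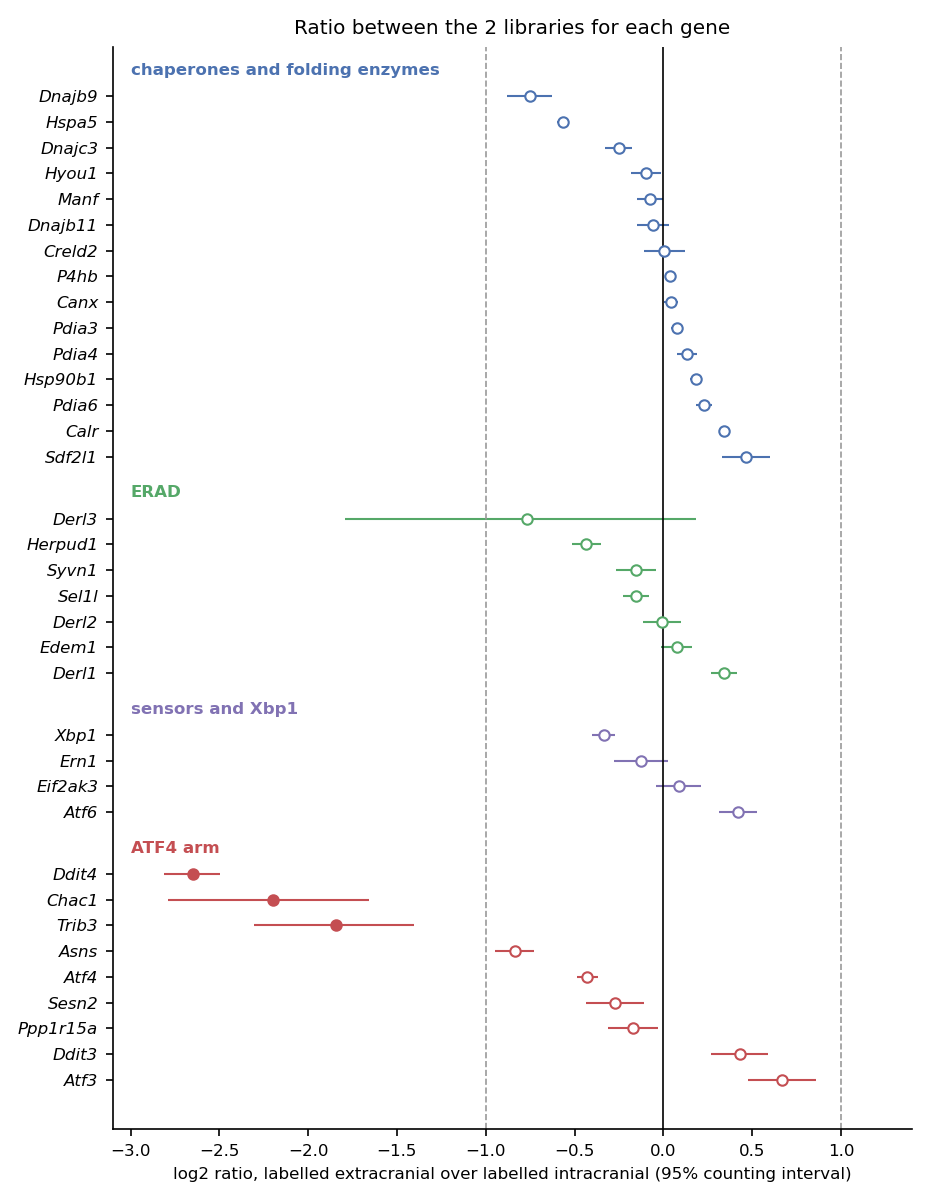
Log2 ratio of the library labelled extracranial over the library labelled intracranial for each of the 35 genes, by group; bars are 95% counting intervals, dashed lines mark 2-fold, the solid line marks no difference, and filled circles are genes whose whole interval lies beyond 2-fold. The filled circles are Ddit4, Chac1 and Trib3, and the chaperones lie between -0.75 and 0.46.

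The chaperones and folding enzymes took nearly the same share of each library. Their summed counts were 143141 and 112409, which is 4120 and 4201 CPM, or 0.414% and 0.418% of all counts. Of the 15 genes, 0 were called in either direction, beside 9.77% lower and 5.86% higher of all genes. Their median log2 ratio was 0.04. That median turned to -0.04 when the library sizes were set by genes that differed little, so no direction can be read from it. Inside the group, however, the genes did not all lie at the same ratio.

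BiP (Hspa5, ENSMUSG00000026864), the ER-resident Hsp70 chaperone that also holds the sensors inactive, had 22272 counts in the library labelled intracranial, against 11603 in the other. That is 641 CPM (95% interval 633 to 649) and 434 CPM (426 to 442), a log2 ratio of -0.56 (-0.60 to -0.53). BiP is widely used as the reporter of ER stress, and its level per kilobase was rank 4 and rank 5 of the 35. Its partner Hsp90b1, the Hsp90 of the ER, went the other way on its ratio, with 14042 and 12296 counts (404 and 460 CPM) and a log2 ratio of 0.19 (0.15 to 0.22). Neither was called.

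The cochaperones that bring substrates to BiP through a J domain had ratios at or below 1-fold. Dnajb9, which delivers misfolded protein for degradation and represses IRE1, had 1613 and 737 counts (46.4 and 27.5 CPM) and the lowest log2 ratio of the group, -0.75 (-0.88 to -0.63). Dnajc3, an inhibitor of PERK, had 3557 and 2303 counts and a log2 ratio of -0.25 (-0.33 to -0.17). Dnajb11, a cofactor for nascent chains, had 2399 and 1773 counts, and its interval included no difference (-0.15 to 0.03). Sdf2l1, which forms a complex with Dnajb11, had the highest ratio of the group instead, at 0.46 (0.33 to 0.60), from 876 and 931 counts (25.2 and 34.8 CPM). The intervals of these partners did not overlap.

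The lectin chaperones and their oxidoreductase hold glycoproteins until they are folded. Calr had 20372 and 19900 counts (586 and 744 CPM) and a log2 ratio of 0.34 (0.31 to 0.37). Canx, its membrane-bound relative, had 12530 and 9945 counts, and Pdia3, the disulfide isomerase that works with both, had 17915 and 14531. The log2 ratios of Canx and Pdia3 were 0.04 and 0.07, values whose sign depended on the scaling. Of these 3, Calr thus had the ratio farthest from 1-fold.

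Among the other disulfide isomerases, Pdia4 had 5697 and 4806 counts and Pdia6 had 8615 and 7767, with log2 ratios of 0.13 (0.08 to 0.19) and 0.23 (0.18 to 0.27). P4hb is both a disulfide isomerase and a subunit of the prolyl 4-hydroxylase that modifies collagen. It was the most abundant of the 35 genes, with 25390 and 20040 counts (731 and 749 CPM), and its log2 ratio was 0.04, with a sign that depended on the scaling. Hyou1, which exchanges nucleotide on BiP, had 2751 and 1978 counts and a log2 ratio of -0.10 (-0.18 to -0.02). Manf, a BiP-binding protein that is secreted under stress, had 3678 and 2690 counts and a log2 ratio of -0.07 (-0.15 to -0.002). Creld2, another stress-induced secreted factor, had 1434 and 1109 counts, and its log2 ratio of 0.01 (-0.11 to 0.12) again changed sign with the scaling. The widest of these differences was 1.17-fold, for Pdia6.

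Some promoters of this group hold a known motif of the response. The genes were chosen as known members of that response, so the share of windows with the motif is not independent of the choice. The ER stress response element (ERSE), spelled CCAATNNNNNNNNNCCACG, is the known site of ATF6 and XBP1 with the factor NF-Y. RefSeq promoter windows of build GRCm38.p6, 250 bases before and 50 after the start site, were searched on both strands. A window was given for 31 of the 35 genes and not for Derl1, Atf6, Hyou1 and Manf. ERSE was found in 7 of the 13 chaperone windows (53.8%), 2 of the 7 ERAD windows, 0 of the 9 windows of the ATF4 arm and 0.119% of all 32851 windows (39 of them). The following sites are shown because their genes have ratios on both sides of 1-fold. The capitals are the fixed letters of ERSE, and each is printed on the strand on which the motif reads forward, with 5 flanking bases a side.
Hspa5 (chr2:34772020-34772048, plus strand): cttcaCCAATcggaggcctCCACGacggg
Dnajc3 (chr14:118937822-118937850, plus strand): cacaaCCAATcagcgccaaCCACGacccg
Creld2 (chr15:88819515-88819543, minus strand): gtggaCCAATtgaggctcgCCACGagaag
Canx (chr11:50325795-50325823, minus strand): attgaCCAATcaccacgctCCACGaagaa
Hsp90b1, nearer site (chr10:86705528-86705556, plus strand): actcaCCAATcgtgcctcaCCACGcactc
Hsp90b1, farther site (chr10:86705633-86705661, minus strand): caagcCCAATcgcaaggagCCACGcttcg
Pdia6 (chr12:17266486-17266514, plus strand): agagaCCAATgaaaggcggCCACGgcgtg
Calr (chr8:84847070-84847098, plus strand): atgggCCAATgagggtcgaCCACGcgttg

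These 8 sites lie before the start site of their genes, from -65 to -47 in Hspa5 to -212 to -194 at the farther site of Hsp90b1, which was the one gene with 2 matches among the 31 searched. The genes that carry them ran from a log2 ratio of -0.56 (Hspa5) to 0.34 (Calr). The gene with the lowest ratio of the group, Dnajb9, and the one with the highest, Sdf2l1, had no match in their windows. Dnajb11 had the related ERSE-II, spelled ATTGGNCCACG, which was found in 0.0365% of all windows. The core of the UPR element bound by XBP1, TGACGTGG, was in 0.676% of all windows and in 0 of the 32 windows of these genes. The motifs do not overlap each other, a match is a description of letters and not a bound site, and no match says only that these letters are not in the window.

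ERAD draws misfolded protein back into the cytosol for the proteasome. The 7 genes summed to 15851 and 11908 counts (456.2 and 445 CPM). Of these, 0 were called in either direction, beside 9.77% lower and 5.86% higher of all genes. The median log2 ratio was -0.15. By counting error alone 3 were lower and 1 higher, beside 32.2% and 29.2% of all genes. The sums thus lay near 1-fold, while single genes lay on both sides of it.

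Herpud1, a membrane protein that organizes the retrotranslocation complex and is strongly induced by ER stress, had 3263 and 1861 counts (93.9 and 69.5 CPM) and a log2 ratio of -0.43 (-0.52 to -0.35). Its promoter window was the only one of the 32 that held both an ERSE-II, a known site of the ATF6 and XBP1 arms, and a CARE, the known site of ATF4 with C/EBP partners, spelled TGATGNAA. Both sites are shown because they link Herpud1 to the chaperones above and to the ATF4 arm below, and the capitals are again the fixed letters.
Herpud1, ERSE-II (chr8:94386372-94386392, plus strand): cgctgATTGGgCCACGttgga
Herpud1, CARE (chr8:94386312-94386329, minus strand): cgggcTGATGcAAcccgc

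The ubiquitin ligase of the pathway and its partner lay near 1-fold. Syvn1, the ligase HRD1, had 1511 and 1046 counts, and Sel1l, its adaptor, had 3658 and 2533. Both had a log2 ratio of -0.15 (-0.27 to -0.04 for Syvn1 and -0.23 to -0.08 for Sel1l), so these subunits of 1 complex had near-equal ratios. Edem1, a lectin-like mannosidase that marks glycoproteins for disposal, had 2430 and 1972 counts and an interval that included no difference (-0.01 to 0.16).

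The derlins, membrane proteins of the retrotranslocation channel, differed among themselves. Derl1 had 3270 and 3190 counts (94.1 and 119 CPM) and the highest ratio of the group, 0.34 (0.27 to 0.41). Derl2 had 1688 and 1292 counts and a ratio within counting error (-0.11 to 0.10), and its sign, like that of Edem1, depended on the scaling. Derl3, which is expressed mainly in secretory cells such as plasma cells and gland cells, had 31 and 14 counts. Its log2 ratio of -0.77 had an interval from -1.79 to 0.18, so a difference was not detectable at this depth.

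Of the sensors with Xbp1, 0 of 4 were called, beside 9.77% lower and 5.86% higher of all genes. Their median log2 ratio was -0.02, a value that turned to 0.02 with upper quartile scaling. Xbp1 (ENSMUSG00000020484) had 5171 and 3157 counts (149 and 118 CPM) and a log2 ratio of -0.34 (-0.40 to -0.27). It is itself raised by the response and was by far the most abundant of the 4, at 45.8 and 36.3 CPM per kilobase. Ern1 had 833 and 588 counts and a ratio within counting error (-0.28 to 0.03). Eif2ak3 had 1164 and 951 counts and was likewise within it (-0.04 to 0.21). Atf6 was higher by counting error in the library labelled extracranial, with 1348 and 1389 counts (38.8 and 51.9 CPM) and a log2 ratio of 0.42 (0.31 to 0.53). The widest difference in this group was thus the 1.34-fold of Atf6, and the activity of the sensors was not measured.

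Of the 4 groups, the ATF4 arm had the widest spread. Its 9 genes summed to 14928 and 7418 counts (429.6 and 277.2 CPM), a log2 ratio of the sums of -0.63 (-0.67 to -0.59). All 3 called genes were here, and the log2 ratios ran from -2.65 to 0.67 with a median of -0.43. Of all genes, 9.77% were called lower and 5.86% higher. By counting error alone 7 of the 9 were lower and 2 higher, beside 32.2% and 29.2% of all genes. In the other 3 groups 0 genes were called. The difference between the groups was not tested.

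Ddit4 (ENSMUSG00000020108), an inhibitor of mTORC1 signalling, had 3017 counts in the library labelled intracranial, against 370 in the other. That is 86.8 CPM (83.8 to 90.0) and 13.8 CPM (12.5 to 15.3), a 6.28-fold difference (5.64 to 7.01) and a log2 ratio of -2.65. It fell from rank 10 to rank 27 of the 35 in level per kilobase, the largest shift in rank of the 35. Ddit4 is also a known target of hypoxia, glucocorticoids and DNA damage, and the hypoxia genes are given below.

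Chac1 (ENSMUSG00000027313), an enzyme that degrades glutathione and a target of ATF4, ATF3 and CHOP, had 191 and 32 counts (5.50 and 1.20 CPM). The difference was 4.60-fold (3.15 to 6.91). Trib3 (ENSMUSG00000032715), a pseudokinase that is raised by ATF4 and CHOP and restrains them, had 242 and 52 counts (6.96 and 1.94 CPM). The difference was 3.58-fold (2.65 to 4.93). Both genes were near the low end of the 35 in level, at rank 32 to 34 in either library, so their calls rest on far fewer counts than those of the chaperones. Both also stayed well above the floor of 3 counts in the library labelled extracranial.

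Asns, the asparagine synthetase that ATF4 raises under amino acid shortage, came next, with 2289 and 986 counts (65.9 and 36.8 CPM). Its log2 ratio of -0.84 (-0.95 to -0.73) did not reach 2-fold, and it was the lowest ratio among the 32 genes not called. Atf4 (ENSMUSG00000042406) had 6354 and 3639 counts (183 and 136 CPM) and a log2 ratio of -0.43 (-0.49 to -0.37). Since ATF4 is controlled mainly through its translation, its RNA is a limited measure of the protein. Sesn2, a stress-induced sensor of leucine, had 779 and 497 counts and a log2 ratio of -0.27 (-0.44 to -0.11). Ppp1r15a (GADD34), the phosphatase subunit that reverses the phosphorylation of eIF2, had 1036 and 709 counts and a log2 ratio of -0.17 (-0.31 to -0.03).

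Against these 7, Ddit3 and Atf3 were higher by counting error in the library labelled extracranial. Ddit3 (CHOP), the transcription factor of stress-induced cell death, had 616 and 639 counts (17.7 and 23.9 CPM) and a log2 ratio of 0.43 (0.27 to 0.59). A second gene ID with the same symbol held 0 counts in both libraries. Atf3, which is raised by ATF4 and by many other stimuli, had 404 and 494 counts (11.6 and 18.5 CPM) and the highest log2 ratio of all 35 genes, 0.67 (0.47 to 0.86). Neither reached 2-fold. Trib3 and Chac1, which lie downstream of CHOP, were thus lower in the library in which Ddit3 was higher.

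CARE was found in 4 of the 9 promoter windows of the ATF4 arm (44.4%), in 0 of the 13 chaperone windows and in 3.97% of all 32851 windows. As with ERSE, this share is not independent of the choice of genes. The 4 genes included those with the second lowest and the highest ratios of the arm, and their sites are shown for that reason, with the fixed letters in capitals.
Chac1 (chr2:119351044-119351061, minus strand): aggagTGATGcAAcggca
Trib3 (chr2:152344034-152344051, plus strand): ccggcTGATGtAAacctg
Asns (chr6:7693220-7693237, minus strand): ccacaTGATGaAActtcc
Atf3 (chr1:191183431-191183448, plus strand): cttggTGATGcAAgtgcg

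The variable letter of the core was c in Chac1, Atf3 and the Herpud1 site above, t in Trib3 and a in Asns. The sites of Chac1 (-193 to -186), Atf3 (-110 to -103) and Asns (-23 to -16) lie before the start site, and that of Trib3 (14 to 21) lies within the first bases of the transcript. Log2 ratios of the genes that carry them ran from -2.20 to 0.67, so the letters did not sort the genes by direction. Ddit4 and Ddit3 had no match in their windows.

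Because the arm held few genes, a wider list of 30 other targets of ATF4 and CHOP was examined, written with earlier results of these data known. Of the 29 with 10 or more counts, 8 were called lower (beside 9.77% of all genes) and 0 higher. By counting error alone 24 were lower, 3 higher and 2 within it, beside 32.2% lower and 29.2% higher of all genes. The median log2 ratio was -0.53, and the sums were 1955 and 1275 CPM. Fgf21, with 1 and 0 counts, was not measurable.

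The called targets included enzymes of serine synthesis and folate metabolism. Phgdh, the first enzyme of serine synthesis, had 1578 and 69 counts (45.4 and 2.58 CPM), a log2 ratio of -4.14 (-4.51 to -3.79). Psat1, the next enzyme, had 4879 and 756 counts, and its log2 ratio was -2.31 (-2.43 to -2.20). Aldh1l2, a mitochondrial folate enzyme, had 157 and 14 counts and a log2 ratio of -3.11. The last enzyme of serine synthesis, Psph, had 634 and 267 counts and did not pass, at -0.87 (-1.08 to -0.66).

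The other called targets had other roles. The amino acid transporter Slc7a5 had 2736 and 764 counts (log2 ratio -1.46), whereas Slc3a2, the partner chain with which it forms 1 transporter, had 3840 and 3543 and a log2 ratio of 0.26. Stc2, a secreted glycoprotein, had 332 and 38 counts (-2.75). Vldlr, a lipoprotein receptor, had 162 and 28 (-2.16). Nupr1, a stress-induced chromatin protein, had 5802 and 1651 counts (-1.44), and the transcription factor Atf5 had 5802 and 1977 (-1.18). Aminoacyl-tRNA synthetases, which are charging enzymes under ATF4, had log2 ratios that did not pass, of -0.86 for Cars1, -0.66 for Iars1, -0.53 for Nars1, -0.48 for Sars1, -0.22 for Aars1 and 0.32 for Wars1. The highest ratio of the list was that of Bbc3 (PUMA), a cell death gene, at 0.41 from 620 and 634 counts. CARE was in 7 of 29 windows (24.1%) of these targets, which were likewise chosen as known targets.

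**Figure D3:**
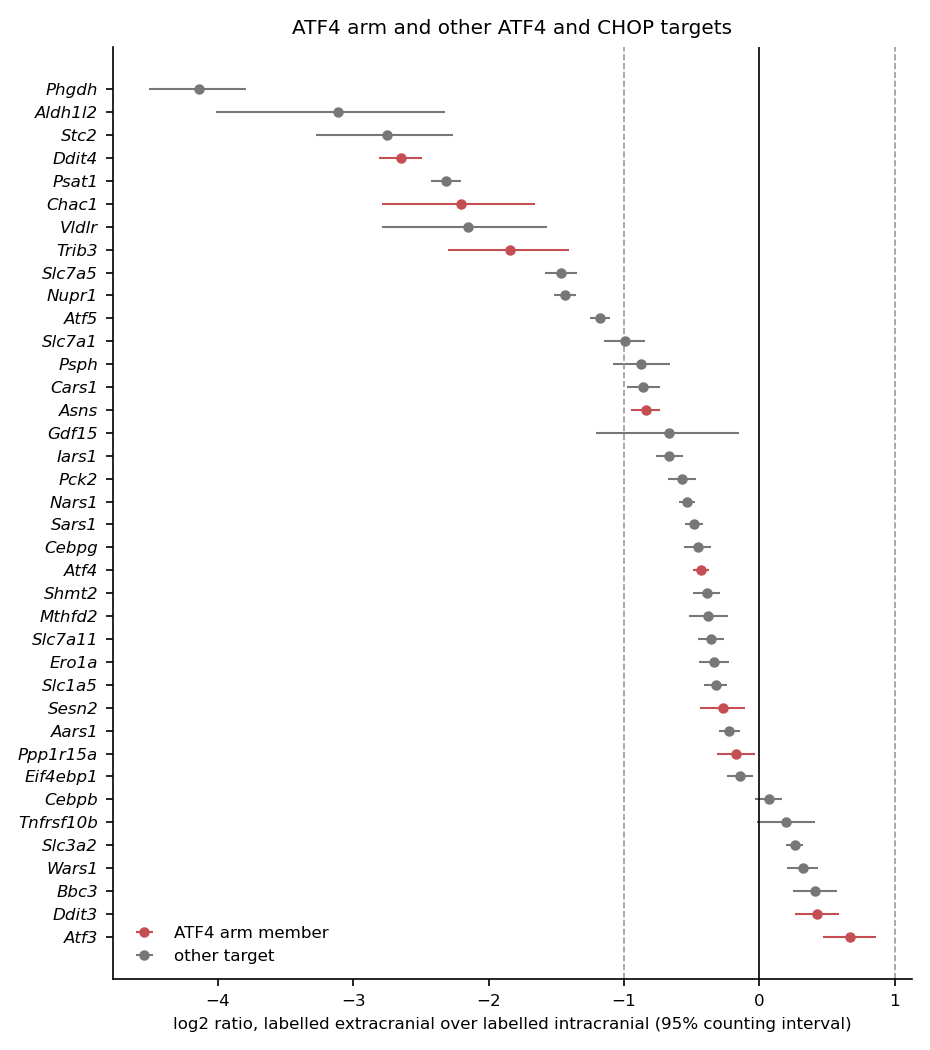
Log2 ratio of the library labelled extracranial over the library labelled intracranial, with 95% counting intervals, for the 9 genes of the ATF4 arm (red) and 29 other targets of ATF4 and CHOP with 10 or more counts (grey); dashed lines mark 2-fold. The targets spread from -4.14 (Phgdh) to 0.67 (Atf3), with 3 of the 9 and 8 of the 29 wholly below the lower dashed line and none wholly above the upper one.

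The rest of the ER machinery differed less than the ATF4 targets. Of all genes with 10 or more counts, 9.77% were called lower and 5.86% higher. Whether 0 called in lists of this length departs from these shares was not tested. Of 18 other ER folding factors, 0 were called, with a median log2 ratio of 0.07 and a range from -0.81 for Dnajc10, a reductase that aids ERAD (5398 and 2367 counts), to a 1.99-fold higher level of Erp29, an ER lumen protein (4160 and 6386 counts). Of 17 other ERAD factors, 0 were called, from -0.38 (Edem3) to 0.39 (Os9), with a median of -0.03. Of 21 subunits of the translocon, signal peptidase and oligosaccharyltransferase, which bring proteins into the ER and glycosylate them, 0 were called, from -0.52 (Sec11c) to 0.42 (Ssr2), with a median of -0.01. The last list summed to 2732 and 2694 CPM.

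The steps around the sensors likewise held no called gene, beside 9.77% lower and 5.86% higher of all genes. Of 12 genes that process or partner the sensors, 0 were called, from -0.49 for Nfe2l2 (NRF2, a substrate of PERK) to 0.99 for Map3k5 (ASK1, a kinase downstream of IRE1, 391 and 599 counts). Of 13 eIF2 kinases and eIF2 factors, 0 were called, from -0.50 (Eif2s2, a subunit of eIF2) to 0.29 (Eif2ak4, the kinase GCN2 that senses uncharged tRNA). The RNA of the other kinases, Eif2ak1 (HRI) and Eif2ak2 (PKR), had log2 ratios of 0.22 and 0.23. Medians were 0.02 and 0.04 in these lists, both of a size that a change of scaling can turn.

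**Figure D4:**
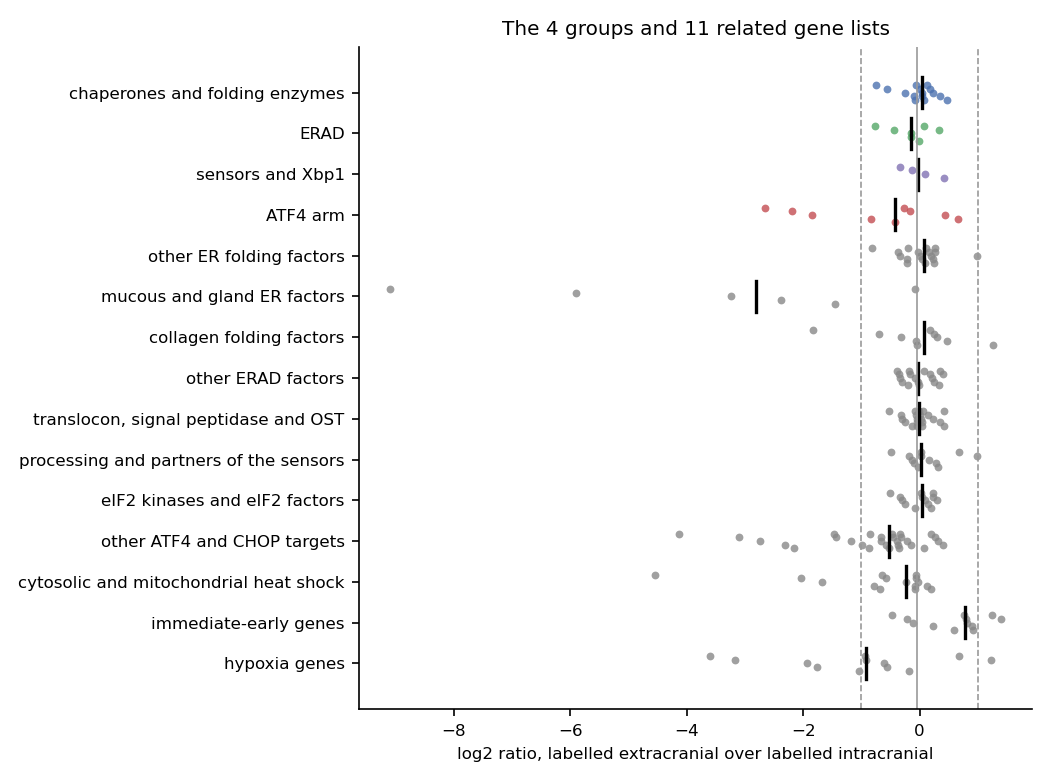
Log2 ratio of the library labelled extracranial over the library labelled intracranial for each gene with 10 or more counts (points), by list, with Agr2, at 0 counts in the library labelled extracranial, drawn at the bound that its floor sets, and with the median of each list (black bars); the grey line is the median of all genes, -0.04, and dashed lines mark 2-fold. The 3 groups other than the ATF4 arm and the 5 lists of general ER, ERAD, translocon, sensor and eIF2 genes hold no called gene, and the ATF4 arm and the lists of other ATF4 targets, heat shock, hypoxia and gland genes reach far to the left. Of all genes with 10 or more counts, 9.77% were called lower and 5.86% higher.

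ER factors of specialised cells differed more. Of 6 ER factors of mucous and gland cells with 10 or more counts, 4 were called lower in the library labelled extracranial, beside 9.77% of all genes. Agr2, a disulfide isomerase for mucins, had 2143 counts and 0, which makes it 550.1-fold lower against the floor of 3 counts per library, and at least 447-fold lower by its counting interval. Spdef, a transcription factor of goblet cells, had 468 and 6 counts. Ern2, the IRE1 paralog of mucous epithelia, had 61 and 5, and Creb3l1, a membrane-bound factor related to ATF6, had 509 and 75. Among 10 collagen folding factors, P4ha2, a prolyl hydroxylase subunit and partner of P4hb, was lower (262 and 57 counts), and Plod2, a lysyl hydroxylase, was higher (1089 and 2020 counts), with a median of 0.07.

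Other stress programs held called genes as well. Of 15 cytosolic and mitochondrial heat shock genes, 3 were called lower and 0 higher, beside 9.77% and 5.86% of all genes. These were Hspb1 (4636 and 152 counts), Hspa1b (3531 and 666) and Hspa1a (1619 and 390). Hspa1a and Hspa1b are a near-identical pair between which reads may be split, and they are cytosolic relatives of BiP. Of 12 immediate-early genes, 2 were called higher and 0 lower, beside the same shares, namely Fos (997 and 2035 counts) and Fosb (314 and 571), with a median log2 ratio of 0.78 for the list. By counting error alone, 13 of the 15 heat shock genes were lower and 1 higher, beside 32.2% and 29.2% of all genes. Of the immediate-early genes, 3 were lower and 9 higher by that rule. Atf3, with its ratio of 0.67, is commonly counted among immediate-early genes too.

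Hypoxia genes and cell type markers differed beside the ATF4 arm. Of 12 hypoxia genes, 4 were called lower in the library labelled extracranial and 0 higher, beside 9.77% and 5.86% of all genes. The 12 genes summed to 1427 and 792.2 CPM. The called genes were Egln3 (538 and 34 counts), Adm (444 and 38), Ndrg1 (1246 and 252) and Ankrd37 (177 and 40), whereas Car9 had 51 and 92 counts. The part of hypoxia in the lower Ddit4 was not tested.

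All 8 of the 8 keratinocyte markers were called lower in the library labelled extracranial, beside 9.77% of all genes, and 3 were at 0 there. The most abundant, Krt13 and Krt4, had 366709 and 5 counts and 199691 and 9 counts. Of 10 gland markers, summed at 2633 and 0.374 CPM, 8 had 10 or more counts, and all 8 were called lower, beside 9.77% of all genes. Of the 10, 7 were at 0 in the library labelled extracranial, including Muc5b with 83812 and 0 counts and Bpifb1 with 4428 and 0. The gland markers short of 10 counts were among those at 0. Skeletal muscle markers summed to 44.4 and 9.45 CPM. Neutrophil markers summed to 706.1 and 58.6 CPM, mostly from S100a9 (14455 and 13 counts) and S100a8 (8970 and 9), which squamous epithelium also expresses. Of these 5 genes 4 were called lower, beside 9.77% of all genes, including Cxcr2 (113 and 4 counts) and Retnlg (306 and 0). The neutrophil receptor gene Csf3r alone went the other way, with 692 and 1542 counts, and was called higher. The part of these cells in the lower ATF4 targets, in Hspa5, Dnajb9, Herpud1 and Xbp1, and in the gland factors was not tested.

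In the other direction, 7 macrophage markers summed to 2769 and 8104 CPM, led by C1qa (23483 and 53683 counts) and C1qc (20789 and 49652). Of the 7, 6 were called higher, beside 5.86% of all genes. Endothelial markers summed to 86.7 and 192.7 CPM and B cell markers to 4.26 and 39.4 CPM. Plasma cells depend on Xbp1 and carry a large ER, and their markers differed among themselves. The list summed to 200.7 and 639.6 CPM, of which Ighm gave 458 and 8069 counts and Sdc1, which epithelia and other cells also express, 5714 and 8148. Of the 9 genes with 10 or more counts, 2 were called higher, Ighm and Tnfrsf17 (3 and 18 counts), beside 5.86% of all genes. By counting error alone 6 were higher and 1 lower, beside 29.2% and 32.2% of all genes. Mzb1 had 0 and 2 counts and Jchain 32 and 40. Fibroblast and collagen markers summed to 5931 and 6683 CPM, led by Col1a2 (60210 and 64597 counts) and Postn (49555 and 20657). Postn is not particular to fibroblasts, since the authors reported strong expression in extracranial RT cells. Its log2 ratio here was -0.89, lower in the library labelled extracranial. Of the 8 genes in this list, 3 were called higher, beside 5.86% of all genes. These were Lum (853 and 15309 counts), Dcn (3745 and 21130) and Col5a1 (711 and 2419). By counting error alone the list was split, with 4 lower and 4 higher, beside 32.2% and 29.2% of all genes. The 6 markers of MYC RT summed to 2278 and 2386 CPM, mostly from Ogn (57776 and 37329 counts) and Angptl7 (13969 and 20351). The authors reported Ogn and Rarres1 in all their MYC tumor groups, but Angptl7 as a marker of spinal MYC tumors. Ogn had a log2 ratio of -0.25 and Angptl7 of 0.92, so the near-equal sums join opposite ratios and do not measure tumor content. Of the 6 genes, 1 was called lower, Rarres1 (983 and 31 counts), beside 9.77% of all genes. The part of these cells in the higher Calr, Atf6, Ddit3 and Atf3 was not tested either.

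**Figure D5:**
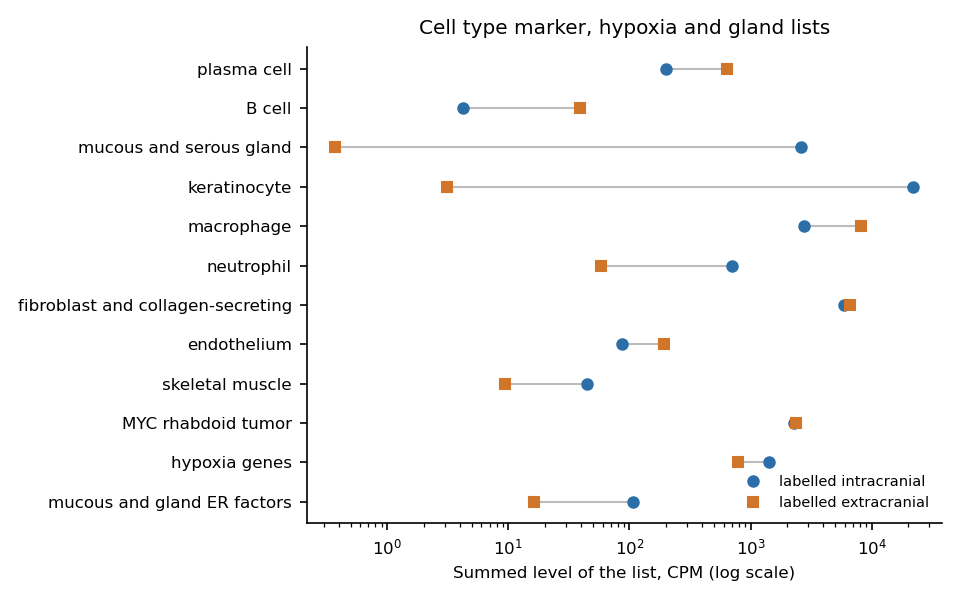
Summed CPM (log axis) of each cell type marker list, the hypoxia genes and the ER factors of mucous and gland cells in the library labelled intracranial (blue circles) and the library labelled extracranial (orange squares); grey lines join the 2 values. Keratinocyte and gland markers lie far to the left in the library labelled extracranial, at 3.10 and 0.374 CPM, macrophage markers lie to the right at 8104 CPM, and the sums of fibroblast and MYC RT markers nearly coincide.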

How the data were processed

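Samples were grouped by the localization label alone, 1 library each. Values were deposited as unnormalized read counts for each Ensembl gene. To make these counts, the authors used poly(A) selection, directional libraries, single reads, STAR 2.7.9a on GRCm39 with Ensembl gene models, and featureCounts; per the labels, FastQC 0.11.9 and MultiQC 1.11 were also run. Strand setting and treatment of multi-mapped reads are not given in the sources used here, so counts of overlapping or near-identical genes are uncertain.

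Symbols (52083 IDs matched) and exon lengths came from GENCODE mouse release M21. These are not the Ensembl gene models used for counting, so levels per kilobase are approximate. Counts were scaled with TMM of edgeR 4.0.16 in R 4.3.3. Intervals were exact (Clopper-Pearson, 95%, scipy 1.17.1) and cover counting error only, since no molecular identifiers were used. Counts under the floor of 3 were set to 3 for ratios. With 1 library per localization, no quasi-likelihood fit was possible. The procedures were tested on simulated data. Alternatives were DESeq2 1.42.0 size factors, total counts, upper quartile scaling, other count minimums and fold limits, protein-coding genes only and a prior count of 2.

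The members and all lists were chosen with earlier results of these data known. Named were all 35 members, in other lists the genes called or else the extremes, in marker lists the 2 genes with most counts, and Smarcb1. The marker lists of skeletal muscle, endothelium and B cells are given by their sums only. Psph, Slc3a2, Cars1, Iars1, Nars1, Sars1, Aars1, Wars1, Bbc3, Eif2ak1, Eif2ak2, Car9, Fgf21, Mzb1, Jchain, Tnfrsf17, Csf3r, Cxcr2, Retnlg, Lum, Dcn, Col5a1 and Rarres1 were added after their values were seen.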

Additional observations from a re-analysis of the deposited data

How the results depend on the processing

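The count of 3 called members was the same with DESeq2 size factors, total counts, upper quartile scaling, a minimum of 100 counts, no minimum, the ratio without its interval and protein-coding genes only. It was 1 with the interval beyond 4-fold and 28 with the interval that leaves out 1-fold, and by these rules the 3434 genes called in all became 1581 and 13500. The ratio alone, without its interval, gave 6063. These changes follow from the rules themselves. An alternative chosen after seeing the data set library sizes by total counts without the 1581 genes beyond 4-fold. It moved all log2 ratios by -0.08 and left 3 called members, and the medians became -0.042 for the chaperones, -0.23 for ERAD and -0.51 for the ATF4 arm. Upper quartile scaling moved the chaperone median to 0.074. The sign of 6 members depended on the scaling (Canx, Creld2, Derl2, Edem1, P4hb and Pdia3), and of 140 member values under other scalings, 120 moved by less than their interval and 0 of the called values changed sign. No paired analysis was possible because each localization has 1 library, and for the same reason no replicate could be left out. Depth limits Derl3 the most.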
